A study of Homo sapiens with 10 samples.

Results

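FOXO1, FOXO3 and 6 genes that FOXO factors are known to switch on during growth arrest (SESN1, SESN3, KLHL24, PIK3IP1, CITED2 and TXNIP) were followed through their histone H3 lysine 27 acetylation (H3K27ac) in H1975 cells, an established lung adenocarcinoma line with mutated EGFR. The members are the rows of the annotated count table whose gene symbol is 1 of these 8: 52 regions of 67387 annotated regions, and 8 genes of 15633. FOXO3 had 12 regions, CITED2 13, TXNIP 13, PIK3IP1 5, FOXO1 3, SESN1 3, KLHL24 2 and SESN3 1. By the deposited annotation, 20 regions lay in the promoter class within 1 kb of a transcript start, 8 lay between 1 and 3 kb, and 24 were distal. No distal region was assigned to FOXO1, SESN1, SESN3 or KLHL24. The DMSO group was grown without drug for 21 days and then given the solvent DMSO for 3 days. Osimertinib DTP cells (drug-tolerant persisters, the cells left alive by prolonged exposure) received 500 nM of the EGFR inhibitor osimertinib for 24 days. Osimertinib DTP + AZD5153 cells received 500 nM osimertinib for 21 days and then 150 nM of the BET bromodomain inhibitor AZD5153 for 3 days. Each group had 3 libraries, labelled as biological replicates, and 1 input library was shared. By their labels all samples come from this 1 line, although the name of the peak list of osimertinib DTP replicate 3 writes H1875, and each of the 9 peak lists matched its own library's counts best. The p-values therefore measure the spread between cultures of it, and the labels do not say whether osimertinib was kept on during AZD5153.

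FOXO factors are forkhead transcription factors that AKT phosphorylates and holds in the cytoplasm while growth factor receptors such as EGFR signal through PI3K. When that signal falls they enter the nucleus and activate genes that restrain growth and protect against stress, several of which feed back on PI3K, mTORC1 or glucose uptake. H3K27ac is a mark of active promoters and enhancers, and BET proteins bind acetylated histones.

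The promoters that bear on the changes below are shown first, taken from RefSeq (GRCh38.p14), where 17 entries of 300 bases (250 before to 50 after a start) matched the 8 genes. Letters searched, on both strands, were GTAAACA (a FOXO element), ATAAACA (a forkhead variant), CAAAACA (an insulin-response-type element), CACGTG (an E-box) and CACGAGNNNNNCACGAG (a tandem repeat of the carbohydrate response type, where N is any base). These letters were chosen after the sequences had been seen, and no pair of matches overlapped apart from the E-box, which reads the same on both strands. The 250 bases before the outermost RefSeq start of TXNIP, KLHL24 and CITED2 and a 30-base stretch of PIK3IP1 follow, 5′ to 3′ on the gene's strand, with matches in capitals, because these are the genes with called regions.
TXNIP: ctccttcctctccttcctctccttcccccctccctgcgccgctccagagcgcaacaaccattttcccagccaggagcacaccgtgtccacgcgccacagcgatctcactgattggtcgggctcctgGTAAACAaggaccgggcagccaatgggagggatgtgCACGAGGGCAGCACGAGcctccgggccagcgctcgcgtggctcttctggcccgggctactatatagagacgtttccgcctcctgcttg
KLHL24: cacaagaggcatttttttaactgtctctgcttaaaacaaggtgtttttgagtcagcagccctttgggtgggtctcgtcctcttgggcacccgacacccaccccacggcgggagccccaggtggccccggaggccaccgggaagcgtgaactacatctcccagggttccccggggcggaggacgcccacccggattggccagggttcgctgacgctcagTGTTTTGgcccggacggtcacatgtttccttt
CITED2: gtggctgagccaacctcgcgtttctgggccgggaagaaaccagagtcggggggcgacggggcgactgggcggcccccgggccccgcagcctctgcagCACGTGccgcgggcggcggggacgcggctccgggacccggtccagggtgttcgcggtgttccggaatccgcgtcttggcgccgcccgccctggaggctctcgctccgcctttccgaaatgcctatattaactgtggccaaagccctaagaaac
PIK3IP1: taaagagaggcTGTTTACcagaacagcata

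These stretches lie at chr1:145996580-145996829 (minus strand), chr3:183635373-183635622 (plus strand), chr6:139374649-139374898 (minus strand) and chr22:31292454-31292483 (minus strand). In TXNIP the match to GTAAACA began 124 bases before the start and the tandem CACGAG repeat 88 bases before it. KLHL24 held CAAAACA on the reverse strand (printed as TGTTTTG) 32 bases before its start, CITED2 held CACGTG 153 bases before its start, and PIK3IP1 held GTAAACA on the reverse strand (printed as TGTTTAC), 16 bases after an inner RefSeq start. In FOXO3, ATAAACA occurred 234 bases before a start inside the gene, at chr6:108560683-108560689, where no region of the count table assigned to FOXO3 lies. No match was found in the promoter entries of FOXO1, SESN1 or SESN3, which says only that these letters are absent from those windows. Over 35116 RefSeq promoters of the same length, GTAAACA was present in 3.42%, ATAAACA in 4.24%, CAAAACA in 4.92%, CACGTG in 7.26% and the tandem repeat in 0.01% (2 promoters). Matches describe letters and not occupied sites.

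Reads in the table's regions numbered between 6263443 and 10463351 per H3K27ac library and 1870885 in the input. Osimertinib DTP + AZD5153 replicate 3 stood apart: it was the shallowest, left 9139 of the 169637 regions without a read against at most 3159 elsewhere, and had 66.7% of its annotated reads in promoters. Osimertinib DTP replicate 2 also had a high promoter share, 59.8%, while the other 7 libraries lay between 40.3% and 45.9%. All 5 epithelial markers checked (EPCAM, KRT8, KRT18, KRT19, CDH1) had promoter regions, and the leukocyte markers PTPRC and CD3E had no region in the annotated table. The summed promoter level of the epithelial list was 506 to 618 CPM with DMSO, 518 to 690 with osimertinib DTP and 442 to 665 with the combination. Both fibroblast markers (COL1A1, PDGFRB) had promoter regions, with a sum of 17.1 to 40.1 CPM with DMSO, 79.2 to 95.6 with osimertinib DTP and 69.1 to 158 with the combination. Of the endothelial pair only CDH5 had promoter regions, at 17.6 to 52.7, 32 to 61.8 and 25.3 to 67.4 CPM in the same order, and PECAM1 had distal ones. The summed distal level of the epithelial list, over the 4 genes with distal regions, was 587 to 883, 296 to 623 and 321 to 511 CPM in the same order. Mean CDH1 distal level was 377, 156 and 110 CPM in the same order (adjusted p = 0.03 in the combination against DMSO, edgeR, lost in 4 of the 9 fits without a library, those without DMSO replicate 2 or 3, osimertinib DTP replicate 1 or combination replicate 1, at up to 0.11), that of EPCAM 187, 65.6 and 61.1 and that of KRT19 75.2, 34.7 and 35.7, while KRT18 had 111, 191 and 215, and these 3 did not pass. The fibroblast promoter level thus moved with the treated groups. PDGFRB promoter passed in osimertinib DTP and in the combination against DMSO (adjusted p = 0.0444 and 0.0143, edgeR), in 3 and 8 of the 9 fits without a library. COL1A1 promoter passed in neither (adjusted p = 0.0683 and 0.151). The epithelial distal level was lower in the combination, while osimertinib DTP overlapped DMSO. The part of these levels in the results was not tested. Values are read counts per 502-bp region or CPM, reads scaled to a common library size with TMM, and a region is called where edgeR's quasi-likelihood test over all 157919 regions tested gave a Benjamini-Hochberg adjusted p under 0.05.

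In osimertinib DTP cells 8 of the 52 regions (15.4%) rose against DMSO and none fell: 3 of PIK3IP1, 3 of CITED2, 1 of KLHL24 and 1 of TXNIP. Over all regions tested, 5.58% were called higher and 5.13% lower, and over the annotated regions 6.98% and 7.22%. In osimertinib DTP + AZD5153 cells 15 of 52 (28.8%) rose against DMSO and none fell (6 of CITED2, 4 of PIK3IP1, 4 of TXNIP and 1 of KLHL24), where 9.05% of all regions and 10.7% of annotated regions were called higher and 9.01% and 11.1% lower. Both comparisons share the DMSO libraries. After adding AZD5153, no member region passed the test against osimertinib DTP. There edgeR called 0.0% of all and of annotated regions in either direction, with 7013 regions at an unadjusted p under 0.05. DESeq2 called 16 regions higher and 59 lower there, none of them of the 8 genes. Without osimertinib DTP + AZD5153 replicate 3, edgeR called 103 of all regions higher and 95 lower in this comparison. The members' median log2 fold change was 0.94 in osimertinib DTP against DMSO, 0.14 after adding AZD5153 and 1.27 in the combination against DMSO, beside 0.18, 0.07 and 0.24 over the annotated regions. No region of FOXO1, FOXO3, SESN1 or SESN3 passed the test in any of the 3 comparisons. H3K27ac in a bulk culture cannot tell more cells carrying the mark from more mark per cell.

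Counts of calls depended on single libraries. Without osimertinib DTP + AZD5153 replicate 3, 16 regions were called higher in osimertinib DTP against DMSO and 22 in the combination against DMSO, where 15.7% and 18.9% of annotated regions were called higher in that fit. The fit of 2 groups gave 16 in osimertinib DTP against DMSO, beside 16.1% of annotated regions. The members' count in osimertinib DTP against DMSO fell to 2 without DMSO replicate 1, 0 without DMSO replicate 2 and 1 without DMSO replicate 3, where 3.55%, 0.726% and 1.39% of annotated regions were called higher. It was 5, 2 and 3 without osimertinib DTP replicates 1, 2 and 3, beside 4.87%, 3.11% and 3.13%. In the combination against DMSO it fell to 7, 5 and 5 without DMSO replicates 1, 2 and 3, beside 6.54%, 3.51% and 3.65%, and to 10 without osimertinib DTP + AZD5153 replicate 2, beside 9.08%. Counted without a test, 21 of 52 regions (40.4%) had all osimertinib DTP values above all DMSO values and 2 (3.85%) had all below, beside 21.2% and 22.7% of annotated regions. For the combination against DMSO these counts were 20 (38.5%) and 2 (3.85%), beside 18.6% and 21.1%, and after adding AZD5153 they were 3 (5.77%) and 0, beside 3.78% and 5.45%.

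**Figure D1:**
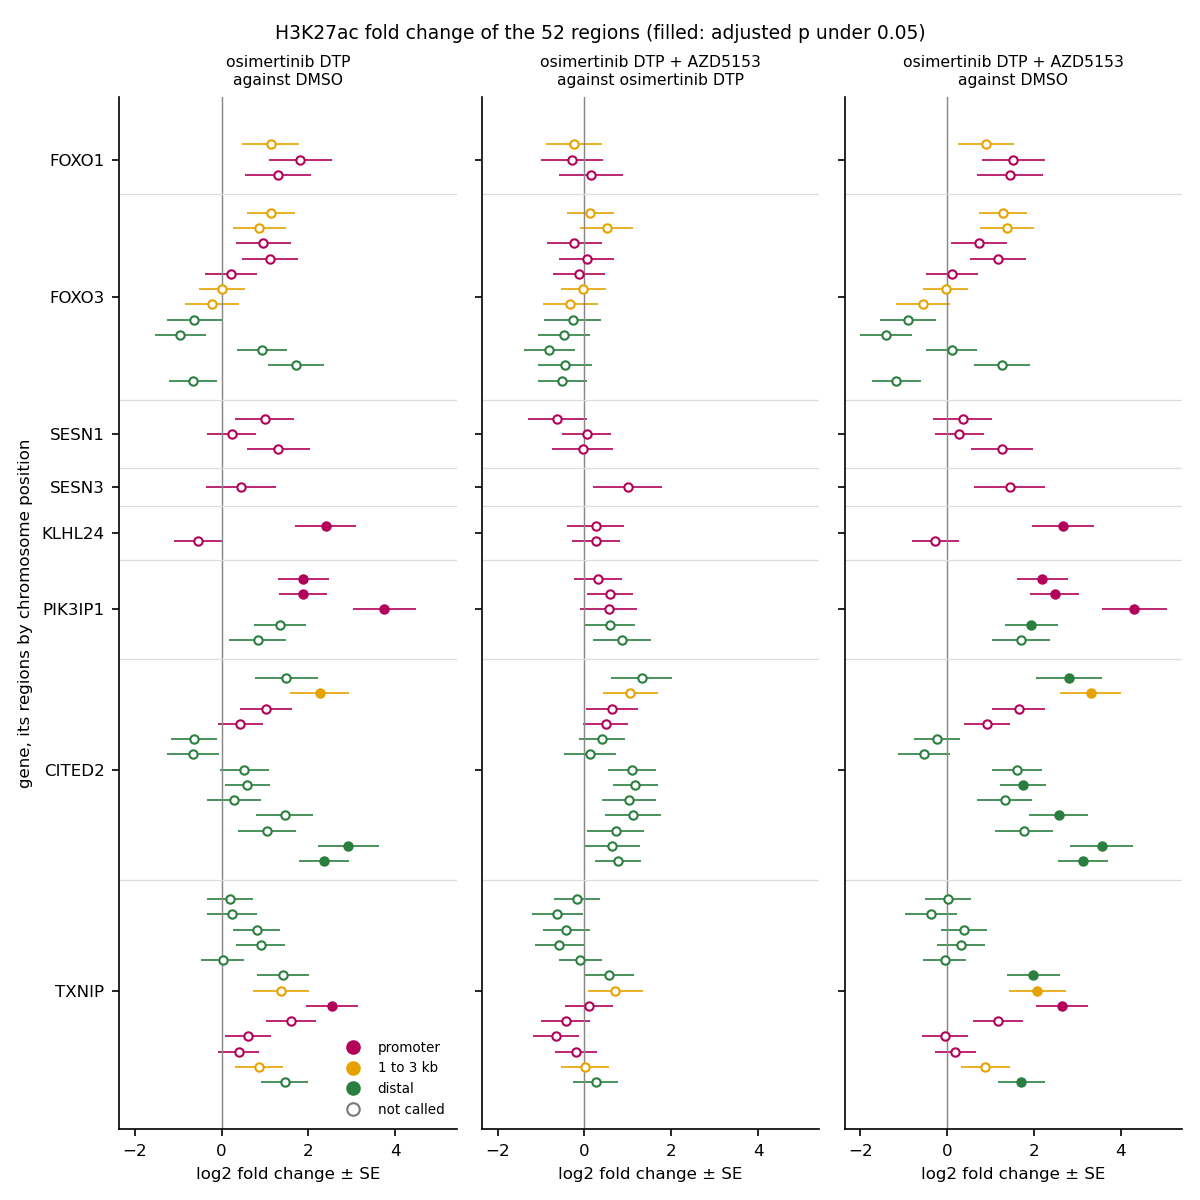
Log2 fold change with its standard error (x axis) of each of the 52 regions, listed by gene and chromosome position (y axis), in the 3 comparisons; filled points passed the test at an adjusted p under 0.05 and colours give the region class. Filled points occur at KLHL24, PIK3IP1, CITED2 and TXNIP, 8 in osimertinib DTP against DMSO, 0 after adding AZD5153 and 15 in the combination against DMSO.

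FOXO1, a factor that drives gluconeogenic and cell cycle arrest genes, had 3 regions at its start on chr13. The one nearest the start (chr13:40666127-40666628) had 32, 35 and 28 reads with DMSO, 33, 123 and 28 with osimertinib DTP, and 42, 31 and 94 with the combination. Only osimertinib DTP replicate 2 and osimertinib DTP + AZD5153 replicate 3, the pair with the high promoter share, stood above DMSO by much, and the groups overlapped. The log2 difference of 1.29 (SE 0.76, adjusted p = 0.305, edgeR) in osimertinib DTP against DMSO was absent without osimertinib DTP replicate 2 (log2 fold change -0.00, adjusted p = 1.0). In the combination it was 1.46 (SE 0.76, adjusted p = 0.199), and 0.32 (SE 0.61) without replicate 3. The region 1.6 kb into the gene had 31, 20 and 21 reads under DMSO, then 35, 131 and 32 under osimertinib DTP, then 37, 32 and 68 under the combination. Here all treated values lay above DMSO in CPM, and the log2 fold change of osimertinib DTP, 1.81 (SE 0.73, adjusted p = 0.123), passed without osimertinib DTP + AZD5153 replicate 3 (adjusted p = 0.0189) and was 0.55 without osimertinib DTP replicate 2.

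FOXO3, a factor that drives stress resistance and cell cycle arrest genes, had 12 regions. At its start (chr6:108559761-108560262) read counts were 172, 167 and 146 with DMSO, 203, 496 and 146 with osimertinib DTP, and 189, 174 and 351 with the combination. The high values again belonged to osimertinib DTP replicate 2 and osimertinib DTP + AZD5153 replicate 3, and the remaining libraries overlapped DMSO or lay just above it. The log2 fold changes against DMSO were 1.11 (SE 0.65, adjusted p = 0.301) in osimertinib DTP and 1.17 (SE 0.65, adjusted p = 0.231) in the combination, and fell to 0.16 and 0.30 without those libraries. Further into the gene the direction was the other way. The distal region with the most reads (chr6:108564423-108564924) had 96, 164 and 85 reads under DMSO, then 85, 51 and 68 under osimertinib DTP, then 78, 80 and 5 under the combination, and its neighbour at chr6:108565262-108565763 had 118, 118 and 88, then 59, 33 and 61, then 61, 40 and 5. In CPM, every DMSO value of that neighbour lay above every treated value, with log2 fold changes of -0.95 (SE 0.59, adjusted p = 0.339) and -1.41 (SE 0.60, adjusted p = 0.113). Deeper in the gene, chr6:108581972-108582473 went from 9, 16 and 17 reads in DMSO to 58, 23 and 50 in osimertinib DTP, and was 35, 47 and 5 in the combination. The log2 difference of 1.72 (SE 0.65, adjusted p = 0.096) in osimertinib DTP passed without osimertinib DTP + AZD5153 replicate 3 (adjusted p = 0.0101).

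The sestrins are stress-induced proteins that restrain mTORC1. The SESN1 region over its outermost RefSeq start (chr6:109094513-109095014) had 72, 91 and 65 reads with DMSO, 90, 302 and 54 with osimertinib DTP, and 100, 92 and 175 with the combination. Osimertinib DTP replicate 3 lay below every DMSO library in reads, so those groups overlapped. The log2 difference of 1.31 (SE 0.72, adjusted p = 0.27) in osimertinib DTP became -0.04 without osimertinib DTP replicate 2, and that of 1.27 (SE 0.72, adjusted p = 0.242) in the combination became 0.46 without its replicate 3. The other SESN1 regions, at an inner start, had log2 fold changes of 0.23 and 0.99 in osimertinib DTP and 0.28 and 0.36 in the combination. SESN3 had a single region, 1.7 kb inside the gene (chr11:95230530-95231031), with 49, 22 and 30 reads under DMSO, then 54, 45 and 19 under osimertinib DTP, then 36, 10 and 115 under the combination. The combination held both the lowest and the highest value, and neither comparison passed (adjusted p = 0.795 and 0.235).

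**Figure D2:**
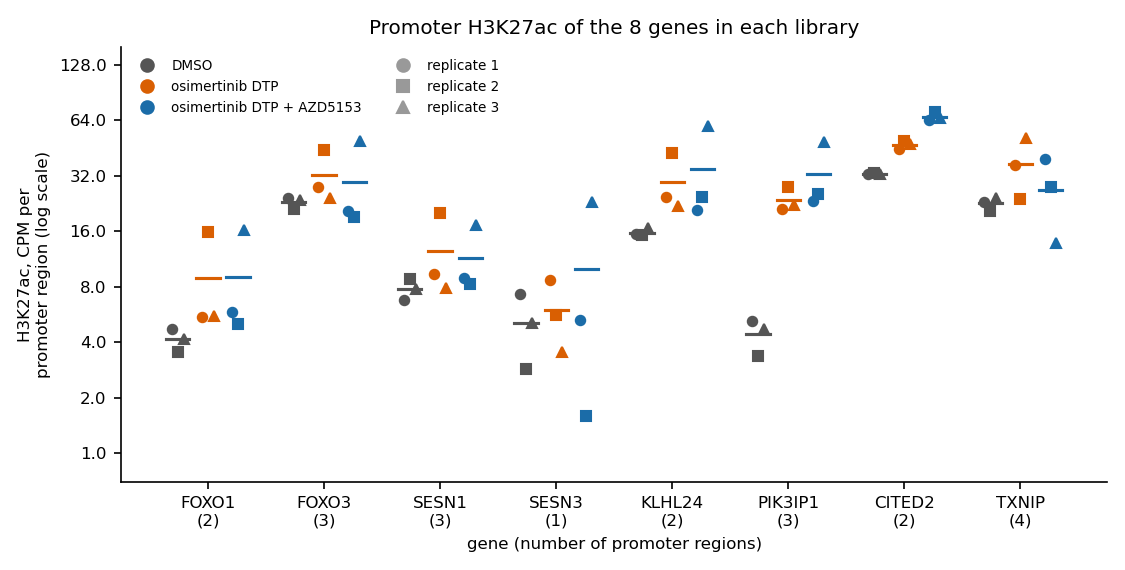
CPM per promoter region on a log axis (reads summed over a gene's promoter regions, scaled and divided by their number, given in brackets) for the 8 genes; each point is a library, its shape the replicate, and lines are group means. FOXO1, KLHL24, PIK3IP1 and CITED2 show all 6 treated libraries above the 3 DMSO libraries, while at FOXO1, FOXO3, SESN1, KLHL24 and PIK3IP1 the highest points of the treated groups are osimertinib DTP replicate 2 and osimertinib DTP + AZD5153 replicate 3.

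KLHL24, an adaptor of the CUL3 ubiquitin ligase, gained H3K27ac over its start. At the start (chr3:183635589-183636090, which holds the CAAAACA match) read counts were 92, 65 and 76 with DMSO, 216, 579 and 189 with osimertinib DTP, and 189, 230 and 512 with the combination. All 6 treated libraries lay above all DMSO libraries, with osimertinib DTP replicate 2 and osimertinib DTP + AZD5153 replicate 3 highest. The region rose by 2.40 on the log2 scale (SE 0.70, adjusted p = 0.0369) in osimertinib DTP and by 2.67 (SE 0.71, adjusted p = 0.0165) in the combination. In osimertinib DTP the call was lost when the replicate number was fitted as a block (adjusted p = 0.0872) and without any 1 of the DMSO replicates or osimertinib DTP replicates 2 and 3, with the highest adjusted p, 0.2, and a log2 fold change of 1.44 without osimertinib DTP replicate 2. In the combination it held without replicate 3 at a log2 fold change of 1.59 (adjusted p = 0.0247), and was lost without any 1 DMSO replicate (adjusted p up to 0.0893). About 1.4 kb into the gene, chr3:183636733-183637234 had 114, 170 and 120 reads under DMSO, then 88, 104 and 47 under osimertinib DTP, then 93, 81 and 75 under the combination, and did not pass (log2 fold change -0.54 and -0.27).

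PIK3IP1, a membrane protein that inhibits PI3K, had the largest log2 fold changes against DMSO of the 8 genes. Its 3 promoter-class regions lie 1.3, 1.9 and 2.6 kb inside the gene, counted from the outermost RefSeq start. The strongest (chr22:31290948-31291449) had 29, 21 and 23 reads with DMSO, 199, 421 and 189 with osimertinib DTP, and 178, 221 and 513 with the combination. All 6 treated libraries lay above the DMSO libraries. The log2 fold change was 3.75 (SE 0.73, adjusted p = 0.00618) in osimertinib DTP, 3.05 (adjusted p = 0.0355) without its replicate 2, and the call was lost only without DMSO replicate 2 (adjusted p = 0.0604). In the combination it was 4.31 (SE 0.75, adjusted p = 0.002), and 3.18 (adjusted p = 0.000108) without replicate 3, and passed in all 9 fits that left out a library. 

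The other promoter regions of PIK3IP1 rose too. Reads at chr22:31290336-31290837 were 48, 51 and 44 under DMSO, then 128, 203 and 114 under osimertinib DTP, then 229, 216 and 158 under the combination, with log2 fold changes of 1.88 (SE 0.55, adjusted p = 0.0355) and 2.48 (SE 0.56, adjusted p = 0.00687). Reads at chr22:31289726-31290227 were 27, 6 and 17, then 67, 41 and 56, then 69, 48 and 50, with log2 fold changes of 1.88 (SE 0.59, adjusted p = 0.0482) and 2.19 (SE 0.59, adjusted p = 0.0175). In neither region did a treated library overlap DMSO. The calls in osimertinib DTP rested on most single libraries: they were lost without any 1 of the 6 libraries compared, and the second also without osimertinib DTP + AZD5153 replicate 1, with adjusted p up to 0.172 and 0.228. In the combination the first was lost without DMSO replicate 3 (adjusted p = 0.0537) and the second without DMSO replicate 2 or 3 (up to 0.11).

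Some 21 kb upstream, PIK3IP1 had a pair of distal regions. Reads at chr22:31312917-31313418 were 9, 15 and 12 with DMSO, 16, 25 and 41 with osimertinib DTP, and 39, 51 and 20 with the combination, and this region rose in the combination against DMSO (log2 fold change 1.94, SE 0.61, adjusted p = 0.0341), a call lost without any 1 DMSO replicate or combination replicate 1 or 2 (adjusted p up to 0.138). The stronger region (chr22:31313576-31314077) had 62, 111 and 93 reads, then 88, 144 and 185, then 310, 422 and 29. Replicates 1 and 2 of the combination were above every other library and replicate 3 was below all of them. Its log2 difference of 1.70 (SE 0.67, adjusted p = 0.0885) passed without replicate 3 (adjusted p = 0.00152).

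The region that covers an inner RefSeq start of PIK3IP1 and the GTAAACA match (chr22:31292014-31292515) is assigned by the deposited annotation to the antisense gene PIK3IP1-AS1 and is no member, and it was looked at after its values were seen. It held 37, 29 and 33 reads under DMSO, then 252, 286 and 429 under osimertinib DTP, then 427, 489 and 192 under the combination. It rose by 3.46 (SE 0.54, adjusted p = 0.00303) and 3.82 (SE 0.55, adjusted p = 0.00114) on the log2 scale, and H3K27ac there cannot be given to either gene.

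**Figure D3:**
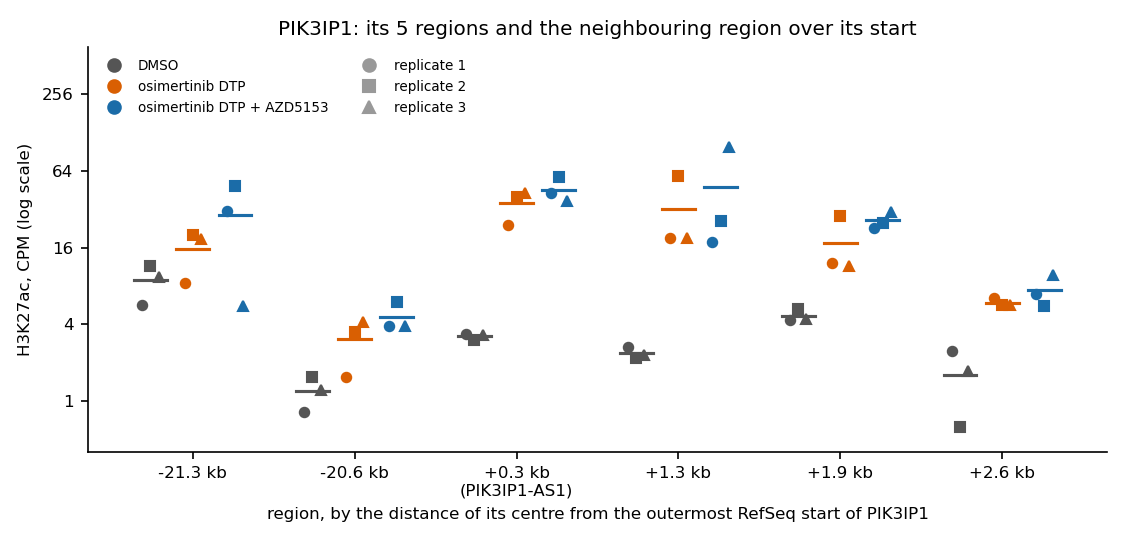
CPM on a log axis of the 5 PIK3IP1 regions and the region assigned to PIK3IP1-AS1, placed by the distance of their centres from the outermost RefSeq start of PIK3IP1 (kb); points are libraries and lines group means. At +1.3, +1.9 and +2.6 kb every treated library lies above every DMSO library, and at -21.3 kb osimertinib DTP + AZD5153 replicate 3 lies at 5.61 CPM against 31.1 and 49.1 CPM in the other replicates.

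CITED2, which binds CBP and p300 and limits hypoxia-driven transcription, had 2 promoter, 1 flanking and 10 distal regions and the highest promoter level of the members, a mean of 32.8 CPM per region in DMSO. The region over the start (chr6:139374634-139375135, with the CACGTG match) had 187, 216 and 161 reads with DMSO, 250, 496 and 196 with osimertinib DTP, and 306, 319 and 553 with the combination, with log2 fold changes of 1.02 (SE 0.60, adjusted p = 0.31) and 1.65 (SE 0.61, adjusted p = 0.0687). The osimertinib DTP and DMSO values overlapped in reads, and all combination values were above DMSO. The combination difference passed without osimertinib DTP replicate 2 (adjusted p = 0.0358).

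Beyond the promoter, CITED2 regions with few reads in DMSO rose. The flanking region at its 3′ end (chr6:139371769-139372270) had 27, 14 and 15 reads under DMSO, then 109, 49 and 87 under osimertinib DTP, then 264, 206 and 18 under the combination. The log2 fold change was 2.26 (SE 0.68, adjusted p = 0.041) in osimertinib DTP and 3.31 (SE 0.70, adjusted p = 0.00514) in the combination. The CITED2 region with the largest called change (chr6:139408649-139409150, 34 kb upstream) had 16, 21 and 17 reads with DMSO, 141, 110 and 117 with osimertinib DTP, and 314, 241 and 18 with the combination, with log2 fold changes of 2.92 (SE 0.70, adjusted p = 0.0153) and 3.56 (SE 0.72, adjusted p = 0.00401).

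Next to it, chr6:139409264-139409765 had 17, 9 and 20 reads under DMSO, then 86, 67 and 57 under osimertinib DTP, then 165, 117 and 49 under the combination, with log2 fold changes of 2.36 (SE 0.57, adjusted p = 0.0152) and 3.13 (SE 0.58, adjusted p = 0.00258). In these 3 regions all treated libraries lay above all DMSO libraries in CPM, although replicate 3 of the combination was far below its other replicates (3.48, 3.48 and 9.47 CPM against 13.6 to 31.5 CPM). The combination calls of all 3 passed in each of the 9 fits without a library. The osimertinib DTP calls of the 2 upstream regions were lost without any 1 DMSO replicate or osimertinib DTP replicate 2 (adjusted p up to 0.0886 and 0.117), and that of the flanking region without any 1 of the 6 libraries compared (up to 0.183).

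A further 3 distal CITED2 regions rose in the combination against DMSO: chr6:139370185-139370686 by a log2 fold change of 2.81, chr6:139403407-139403908 by 1.76 and chr6:139407361-139407862 by 2.57, each lost without any 1 DMSO replicate, the first also without combination replicate 1 and the second without combination replicate 1 or 2 (adjusted p up to 0.078, 0.14 and 0.0824). In the first and the last of these, combination replicate 3 (1.35 and 3.48 CPM) overlapped DMSO. Not all distal regions rose: the strongest in DMSO (chr6:139379124-139379625, 4.5 kb upstream) had 161, 239 and 126 reads with DMSO, 97, 104 and 88 with osimertinib DTP, and 131, 160 and 19 with the combination, with log2 fold changes of -0.67 (SE 0.60, adjusted p = 0.536) and -0.54 (SE 0.60, adjusted p = 0.578). All 13 CITED2 regions had a log2 fold change above 0 after adding AZD5153 to osimertinib DTP, between 0.13 and 1.32, and none passed (adjusted p = 1 for each). In that comparison 3 regions had all combination values above all osimertinib DTP values. Without replicate 3 the smallest adjusted p among them was 0.0654.

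**Figure D4:**
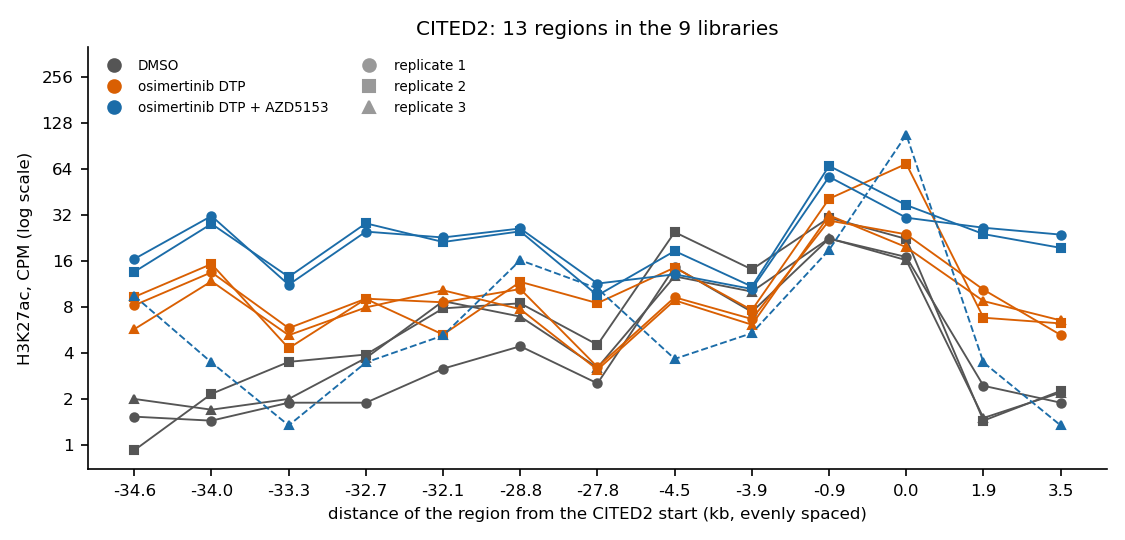
CPM on a log axis of the 13 CITED2 regions, evenly spaced and labelled with their distance from the CITED2 start (kb); lines join the regions of a library, and the dashed line is osimertinib DTP + AZD5153 replicate 3. At -34.0 kb DMSO lies between 1.45 and 2.17 CPM, osimertinib DTP between 11.8 and 15.3 CPM and the combination at 31.5, 28.0 and 3.48 CPM.

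TXNIP, an arrestin-family protein that binds thioredoxin and limits glucose uptake, rose at 1 region inside the gene. In the combination, regions outside the gene rose too. Its summed promoter reads did not pass against DMSO. The log2 fold change of that sum was 0.72 (adjusted p = 0.332, edgeR) in osimertinib DTP and 0.25 (adjusted p = 0.727) in the combination. The start-proximal region that holds the GTAAACA match (chr1:145996676-145997177) had 277, 350 and 275 reads under DMSO, then 319, 379 and 330 under osimertinib DTP, then 373, 294 and 154 under the combination. The groups overlapped in CPM, and the log2 fold changes were 0.39 (SE 0.48, adjusted p = 0.676) and 0.19 (SE 0.48, adjusted p = 0.829). The region 3.3 kb into the gene (chr1:145992981-145993482, 734 bp from the start that the deposited annotation used) had 26, 8 and 22 reads with DMSO, 120, 57 and 121 with osimertinib DTP, and 154, 103 and 34 with the combination. Every treated value was above every DMSO value, and the region rose by 2.54 (SE 0.60, adjusted p = 0.0139) in osimertinib DTP and 2.65 (SE 0.60, adjusted p = 0.00722) in the combination on the log2 scale. The first call was lost without DMSO replicate 2 or 3 or osimertinib DTP replicate 3 (adjusted p up to 0.11), and the second without DMSO replicate 2 (0.0634).

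In the combination 3 more TXNIP regions rose against DMSO, a pair just beyond the 3′ end (chr1:145990159-145990660 and chr1:145990729-145991230, log2 fold changes 1.99 and 2.08) and one 5.0 kb upstream of the outermost RefSeq start (chr1:146001366-146001867, 1.71). All combination values of these 3 lay above all DMSO values. The pair was highest in combination replicate 2, at 16.3 and 18.3 CPM against 3.48 to 6.76 CPM in the other 2 replicates, and was lost without it (adjusted p up to 0.198 and 0.288) as without any 1 DMSO replicate, the second also without osimertinib DTP replicate 2 (0.051). The upstream call was lost in 7 of the 9 fits, those without any 1 DMSO replicate, osimertinib DTP replicate 1 or 3, or combination replicate 1 or 2 (up to 0.161). The strongest distal region (chr1:145985199-145985700) had 417, 459 and 343 reads, then 437, 332 and 336, then 506, 388 and 96, and log2 fold changes of 0.02 and -0.06 (SE 0.50 for both).

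Summed per gene, promoter H3K27ac of PIK3IP1 rose in osimertinib DTP from 13.3 ± 2.87 CPM in DMSO to 71.0 ± 10.5 CPM (SD, n = 3), a log2 difference of 2.42 (SE 0.35, adjusted p = 0.00928, edgeR over the promoter and distal sums of all genes), and to 97.6 ± 41.9 CPM in the combination (2.87, SE 0.35, adjusted p = 0.00334). The osimertinib DTP call was kept with the replicate number as a block (adjusted p = 0.0456) and lost without DMSO replicate 2 or 3 (up to 0.0663). CITED2 promoter signal was 65.6 ± 0.694 CPM with DMSO, 94.4 ± 4.42 with osimertinib DTP and 134 ± 6.97 with the combination (SD, n = 3). Its 3 groups did not overlap, and it rose in the combination against DMSO (log2 fold change 1.03, SE 0.21, adjusted p = 0.0114, lost without DMSO replicate 2 or 3 at up to 0.0659) without passing in osimertinib DTP (0.53, SE 0.21, adjusted p = 0.152). These were the called sums among the 12 of the members: 1 higher in osimertinib DTP, where 3.96% of all sums were called higher and 4.9% lower, 0 after adding AZD5153 (0.0% in both directions), and 2 higher in the combination against DMSO (6.77% and 8.72%). Without osimertinib DTP + AZD5153 replicate 3 the counts were 2, 0 and 4, adding KLHL24 promoter in the first and PIK3IP1 and CITED2 distal in the last, with adjusted p of 0.0282, 0.00471 and 0.00261.

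The promoter sums of FOXO1, FOXO3, SESN1, KLHL24 and PIK3IP1 were highest in the libraries with the largest promoter share. Reads at the FOXO1 promoter were 63, 55 and 49 under DMSO, then 68, 254 and 60 under osimertinib DTP, then 79, 63 and 162 under the combination. At KLHL24 they were 206, 235 and 196, then 304, 683 and 236, then 282, 311 and 587. The high values belong to the libraries with 59.8% and 66.7% of reads in promoters, and the part of that share in the differences was not tested. Distal sums moved the other way in osimertinib DTP + AZD5153 replicate 3, where FOXO3 had 39 reads against 256 and 267 in its replicates, CITED2 312 against 1917 and 1610, and TXNIP 323 against 1250 and 1084. For FOXO1, KLHL24, PIK3IP1 and CITED2, the promoter sums in CPM of the treated libraries with ordinary promoter shares lay above every DMSO library. At FOXO1 the values came close, with 9.99 CPM in combination replicate 2 and 9.45 CPM in DMSO replicate 1. The log2 fold change of the FOXO1 sum in osimertinib DTP, 1.12, was 0.42 without osimertinib DTP replicate 2 (adjusted p = 0.775, edgeR).

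**Figure D5:**
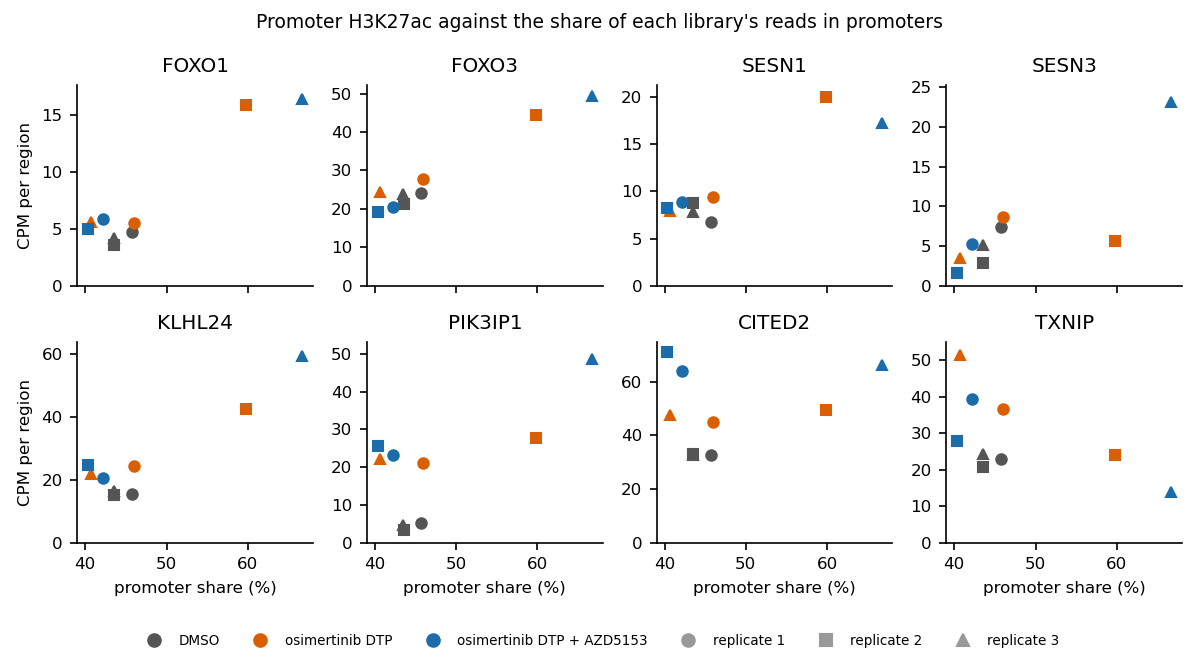
CPM per promoter region (y axis, from 0) against the percentage of each library's annotated reads in promoters (x axis) for the 8 genes; colours are groups and shapes replicates. Osimertinib DTP replicate 2 (59.8%) and osimertinib DTP + AZD5153 replicate 3 (66.7%) lie to the right, and at FOXO1, FOXO3, SESN1, KLHL24 and PIK3IP1 they are the highest points.

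The peak lists that the authors called in each library held a peak over 33, 35 and 33 of the 52 regions with DMSO, 49, 52 and 51 with osimertinib DTP and 52, 49 and 38 with the combination. As shares these were 63.5% to 67.3%, 94.2% to 100% and 73.1% to 100%, beside 81.2% to 85%, 84.1% to 84.9% and 64.1% to 83.2% of all annotated regions under a peak in the same libraries, the lowest shares of the combination being those of replicate 3. Any overlap of 1 bp counted, and 20 regions had a peak in all 9 libraries. The fold enrichments below belong to the peak and not to the region, so a wide peak gives the same value to every region it touches. No DMSO library had a peak over any of the 3 PIK3IP1 promoter regions, whereas all 6 treated libraries did. The fold enrichment of these peaks over background was between 4.3 and 46.7. In osimertinib DTP + AZD5153 replicate 3, 1 peak of 3601 bp gave the 46.7 of all 3 regions. Likewise, no DMSO library and all 6 treated libraries had a peak over the CITED2 regions at -34.0 and -34.6 kb (7.6 to 40.5). The peak of osimertinib DTP + AZD5153 replicate 3 reached only 34 bp into the region at -34.0 kb, and it covered the region at -34.6 kb. The TXNIP region 3.3 kb into the gene also had a peak in all treated and in no DMSO libraries (3.7 to 21.6). FOXO1 and FOXO3 start regions had peaks in all DMSO libraries, with enrichments of 2.5 to 4.2 and of 8.9 to 12.4. At the FOXO1 start 2 of the 3 osimertinib DTP libraries had a peak (3.1 to 19.0), and replicate 3 had none. All 3 combination libraries had one there (4.5 to 15.5). At the FOXO3 start the enrichment was 10.4 to 46.3 in osimertinib DTP and 12.4 to 46.7 in the combination.

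Genes around the 8 members were followed too. Of other FOXO factors, FOXO6 had regions and FOXO4 had none in the annotated table, and 3 of 6 FOXO6 regions were called higher in each comparison against DMSO and 0 lower. The 1 FOXO6 sum was not called, with a log2 fold change of -0.11 in osimertinib DTP and 0.3 in the combination against DMSO. Of 18 other known FOXO targets, 17 had 131 regions, of which 6 were higher and 2 lower in osimertinib DTP and 18 and 8 in the combination. None of these regions passed after adding AZD5153. Against the 6.98% and 10.7% of annotated regions called higher, the shares of the targets are 4.58% and 13.7%. Against the 7.22% and 11.1% called lower, they are 1.53% and 6.11%.

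Of the 31 promoter and distal sums of these targets, 3 were higher and 0 lower in osimertinib DTP and 6 higher and 1 lower in the combination against DMSO, beside 3.96% and 4.9%, then 6.77% and 8.72% over all sums. In osimertinib DTP the distal sum of BCL6, a transcriptional repressor, was higher by 1.63 (SE 0.27, adjusted p = 0.012), the promoter of MXI1, an antagonist of MYC, by 1.62 (SE 0.28, adjusted p = 0.0137) and that of DEPP1 by 1.00 (SE 0.25, adjusted p = 0.0355). With the replicate number as a block, MXI1 passed (adjusted p = 0.0483) and BCL6 (0.0517) and DEPP1 (0.0821) did not. BCL6 was lost without DMSO replicate 2 or 3 (adjusted p up to 0.0785), MXI1 without these or osimertinib DTP replicate 3 (0.0848), and DEPP1 without any 1 of the 6 libraries compared or combination replicate 1 (0.166). The sum that was lower in the combination was distal CCNG2, with 1 region (log2 fold change -3.11, SE 0.81, adjusted p = 0.0307, lost without any 1 DMSO replicate, osimertinib DTP replicate 1 or combination replicate 1 at up to 0.102).

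The promoter patterns most like those of 3 members were looked up over the 9 libraries and 12287 genes, by Pearson correlation of log2 CPM of promoter sums, as a description. For FOXO1 they were FBXO31 (r = 0.989), LYSMD2 (0.987) and ARHGAP12 (0.986), and for FOXO3 BICRA (0.997), TRAPPC5 (0.993) and USP33 (0.993). For TXNIP they were LOC101928401 (0.968), CLCA4-AS1 (0.951) and ZNF493 (0.946). The 9 points share their libraries, depths and promoter shares.

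Per promoter region, which is a comparison of levels between genes at equal length, DMSO means ran from 32.8 CPM at CITED2 over 23.1 at FOXO3, 22.6 at TXNIP, 15.8 at KLHL24, 7.8 at SESN1, 5.09 at SESN3 and 4.43 at PIK3IP1 to 4.14 at FOXO1. In osimertinib DTP the order was CITED2 (47.2), TXNIP (37.2), FOXO3 (32.1), KLHL24 (29.6), PIK3IP1 (23.7), SESN1 (12.4), FOXO1 (8.95) and SESN3 (5.95), so that PIK3IP1 stood above SESN1 and SESN3. In the combination PIK3IP1 (32.5) came after CITED2 (67.0) and KLHL24 (34.9). Neighbours in these orders whose library values overlap, such as FOXO3 and TXNIP in DMSO, do not differ beyond their spread. The regions also differ in position, which limits the comparison. Those of PIK3IP1 lie 1.3 to 2.6 kb inside the gene and that of SESN3 1.7 kb inside, while the other genes include a region at their start. Regions over or near the PIK3IP1 and SESN3 starts that are assigned to other genes are not in these means.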

How the data were processed

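H3K27ac ChIP-seq was done in H1975 cells (DMSO, osimertinib DTP and osimertinib DTP + AZD5153, 3 libraries each, and 1 input). The deposited read counts per 502-bp region were not normalised. The authors' peak lists gave a fold enrichment, a −log10 p-value and a −log10 q-value per peak and library. The lists were used to ask which regions lay under a peak, and the fold enrichments of those peaks are given. The p-values served to match each list to its library's counts. The submitters' processing notes name hg38, BWA 0.7.17, MACS2 2.2.6, featureCounts 2.0.0 and ChIPseeker 1.29.1 without roles. The labels call the replicates biological.

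Counts were fitted with edgeR 4.0.16 (quasi-likelihood, robust, TMM scaling, low regions removed by filterByExpr) in R 4.3.3 on all 9 ChIP libraries, with 1 term per group and Benjamini-Hochberg adjustment over 157919 of 169637 regions (threshold 0.05). A second fit used the promoter (within 1 kb) and distal (over 3000 bp) sums of every gene. DESeq2 1.42.0, loess offsets (limma 3.58.1), library sizes without TMM, no filter, fits of 2 groups, the replicate block and each library left out were tried as alternatives. Scripts were tested on simulated data. Same-numbered libraries of DMSO and osimertinib DTP deviated together over the regions (r = 0.334, 0.355 and 0.324), so the blocked fit is given where it changes a call. Over the gene sums replicate 2 did not (r = 0.303, -0.015 and 0.269 for replicates 1, 2 and 3). Between the combination and DMSO, replicates 2 and 3 deviated together over the regions and replicate 1 did not (r = -0.018, 0.553 and 0.362 for replicates 1, 2 and 3). Between the combination and osimertinib DTP, r was 0.243, 0.026 and -0.24, so the numbers did not pair those libraries. Regions named per gene were the promoter and the distal region with the highest mean CPM and, among called regions, those with the largest log2 fold change in each direction. Other regions given by coordinates were chosen after their values were seen. Counts over a list of PI3K and AKT genes are not reported here. Of each pathway list, up to 3 genes per direction with the largest called change of a sum were named. The members and lists were chosen with earlier results of these data known. No genome of the files' build was used, and sequences are RefSeq's. Total counts set the precision, and PCR duplicates were not assessed here.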

Additional observations from a re-analysis of the deposited data

Results flagged for a closer look

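The closer look covered 33 regions inside or within 5000 bp of the 8 genes that the deposited annotation assigns to none of them, of which 30 were tested. Of these, 3 were called higher in osimertinib DTP against DMSO and 5 in the combination against DMSO, none lower, where 5.58% and 9.05% of all regions tested were called higher. These 5 regions were chosen after their values were seen. Inside FOXO3, chr6:108651349-108651850 had 9, 4 and 6 reads with DMSO, 44, 20 and 32 with osimertinib DTP, and 52, 62 and 7 with the combination (log2 fold change 2.45 in osimertinib DTP against DMSO, adjusted p = 0.0296, edgeR, lost without any 1 of the 6 libraries compared at up to 0.153). Its neighbour chr6:108651972-108652473 had 6, 4 and 5 reads, then 42, 10 and 28, then 50, 48 and 9 (2.47, adjusted p = 0.0294, lost without any 1 DMSO replicate or osimertinib DTP replicate 1 or 3 at up to 0.141). Near the SESN3 start, chr11:95231816-95232317 had 34, 32 and 25 reads, then 108, 62 and 66, then 161, 56 and 40 (1.77 in the combination against DMSO, adjusted p = 0.0346, lost without any 1 DMSO replicate, osimertinib DTP replicate 1 or combination replicate 1 at up to 0.208). The region over an inner PIK3IP1 start, chr22:31292014-31292515, described above, had a log2 fold change of 3.46 in osimertinib DTP and passed in all 9 fits that left out a library. Downstream of CITED2, chr6:139369163-139369664 had 4, 0 and 4 reads, then 14, 8 and 12, then 67, 41 and 2 (3.89 in the combination against DMSO, adjusted p = 0.0111, lost without DMSO replicate 2 or combination replicate 1 at up to 0.0615).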

How the results depend on the processing

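Fitting 2 groups only gave 16 called regions in osimertinib DTP against DMSO (16.1% of annotated regions higher), and leaving out 1 library gave 0 to 16 (0.726% to 15.7%), against 5 to 22 in the combination against DMSO (3.51% to 18.9%). For the gene sums, DESeq2 and the fit of 2 groups gave 2 in osimertinib DTP against DMSO, and leaving out 1 library gave 0 to 2, against 1 to 4 in the combination against DMSO. The replicate block gave 7 called regions in osimertinib DTP against DMSO, with KLHL24 the one lost, and over all gene sums it left 137 higher and 177 lower where 810 and 1001 were called without it. After adding AZD5153, where the numbers did not pair libraries, the block gave 0 called regions. In the combination against DMSO it gave 14. There same-numbered libraries deviated together in replicates 2 and 3 but not in replicate 1 (r = 0.553, 0.362 and -0.018).

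The values whose direction reversed had not passed the test. After adding AZD5153, the log2 fold change became -0.05 at CITED2 139379124 with the replicate block, -0.04 at FOXO3 108559761 without a filter, 0.06 (DESeq2), 0.35 (loess), 0.01 (fit of 2 groups) and 0.26 (replicate block) at SESN1 109094513, 0.05 at TXNIP 145985199 (DESeq2) and -0.07 at TXNIP 145992981 (no TMM). At TXNIP 145985199 it became 0.09 (fit of 2 groups) in the combination against DMSO, and -0.10 (DESeq2), -0.05 (no TMM) and -0.16 (loess) in osimertinib DTP against DMSO. At TXNIP 145996676 it became -0.02 (no TMM) and -0.15 (loess) in the combination against DMSO. The cause was not tested. Leaving out 1 library, values in osimertinib DTP against DMSO ran from -0.00 to 1.79 at FOXO1, from -0.04 to 1.85 at SESN1 and from -0.09 to 0.22 at TXNIP 145985199, and in the combination against DMSO from -0.44 to 1.94 at SESN3 and from -0.32 to 0.26 at TXNIP 145985199. After adding AZD5153 they ran from -0.96 to 1.48 at FOXO1, -0.81 to 1.03 and -0.70 to 0.21 at FOXO3 108559761 and 108564423, -0.85 to 1.33 at SESN1, -0.88 to 1.49 at SESN3, -0.81 to 1.24 at KLHL24, -0.57 to 1.28 at PIK3IP1 31290948, -0.15 to 1.38 and -0.35 to 0.55 at CITED2 139374634 and 139379124, and -0.41 to 0.05, -0.35 to 0.24 and -0.18 to 0.38 at TXNIP 145996676, 145985199 and 145992981. Low reads in DMSO and 3 libraries a group limit what could be detected.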
